A study of Miniopterus schreibersii with 14 samples.

Results

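Digits and the tissue between them were compared in the developing hand and foot of the bent-wing bat (Miniopterus schreibersii), in 6 of the 14 libraries of the series. All 6 come from embryos labelled S15-17. The 3 digit libraries hold digit I of the forelimb, digits II-V of the forelimb, and all 5 digits of the hindlimb. The 3 interdigital libraries hold the tissue lying between forelimb digits I and II, the tissue among forelimb digits II to V, and the tissue among the hindlimb digits. Each digit library was matched to its neighbouring tissue, which gave 3 regions, called here the thumb side, the wing and the foot. Every part has 1 library, and the labels give neither an embryo number nor any pooling. The mRNA was counted over 64618 assembled components, named by assembly number. Of these, 16311 (25.2%) had a mean normalized score of at least 20 over the 6 libraries and were kept; they held 98.38% of all scores. Around this minimum, 218 components had a mean from 20 to 21 and 233 one from 19 to 20.

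In a limb bud, the digits form as rods of condensing mesenchyme that turn into cartilage, with joints between the segments. The mesenchyme left between them follows another course: in most mammals much of it regresses by cell death under bone morphogenetic protein (BMP) signalling, which frees the digits. In bats, the tissue between the long wing digits stays and becomes flight membrane, while the thumb and the foot are set free. These roles are known from work on named genes. None of the 64618 identifiers matched the RefSeq gene table for this species, which lists 22775 genes, so no component could be tied to a gene, and the labelled tissues could not be checked against cartilage, skin, muscle or blood markers.

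A score is a normalized count rounded to a whole number. From the steps on which low scores fall, the digit libraries held 4550754 reads for the thumb, 5474111 for the wing and 5700318 for the foot. Their interdigital counterparts held 6483035, 5563074 and 6828498. Depth thus moved with tissue on the thumb side and in the foot, and was nearly equal in the wing. The score of 1 read was 1.36 to 2.14.

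Digits and interdigital tissue differed in 267 components (1.64% of those tested), of which 217 (1.33%) were higher in digits and 50 (0.307%) were lower. The test was limma on log2(score + 1) with the region as block, two-sided, with Benjamini-Hochberg adjustment over the 16311 kept components and a call at an adjusted p under 0.05. At an unadjusted p under 0.05 there were 1676 (10.3%). The differences called were mostly moderate. Of the 217 higher in digits, 41 differed over 4-fold, 112 between 2-fold and 4-fold, and 64 by less. Of the 50 lower in digits, 4 differed over 4-fold, 22 between 2-fold and 4-fold, and 24 by less. The median log2 difference was 1.24 for the first set and -1.01 for the second, against 0.04 over all kept components. In a piece of tissue, more cells of a type and more RNA per cell cannot be told apart. The spread in this test is that of the tissue difference over the 3 regions, with 2 residual degrees of freedom. The spread within 1 part was not measured.

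How many components pass depends on which components enter the fit, because limma takes part of each one's spread from the others. With a minimum mean of 10 over all 14 libraries instead, which admits 4119 components with a mean under 20 in these 6, the count was 4, all higher in digits. The borrowed spread then had a weight of 4.75 degrees of freedom, against 14.7 in the test above. A minimum of 10 over the 6 libraries gave 269. It admits 3794 components with a mean under 20, and the borrowed spread had a weight of 15.8 degrees of freedom. The count was 94 without the foot pair, 350 without the thumb-side pair and 242 without the wing pair. Of these, 79, 191 and 177 were among the 267. These counts are not on equal terms, since each fit borrows its own spread. The smallest limma adjusted p was 0.0079 without the foot pair, 8.8e-35 without the thumb-side pair and 4.3e-18 without the wing pair. An unadjusted limma p under 0.05 was found for 2584, 1184 and 1200 components, the opposite order. The counts thus do not show which pair the calls rest on. Without the region block the count was 0, and without a mean-variance trend 8. The balance of directions moved with the scaling of the libraries. Upper-quartile scaling gave 206 higher and 94 lower, median centring 279 and 125, and voom on the recovered reads 183 and 83. With reads thinned to equal depth it was 177 and 41.

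Component comp3547_c0 had the largest difference among components called higher in digits. It scored 28, 78 and 36 in the digits of thumb, wing and foot, and 1, 2 and 1 in the tissue beside them. The lowest digit score was thus far above the highest interdigital score, which stands for 1 read. It held 79 reads in the 3 digit libraries and 3 in the others, a depth-adjusted ratio of 32.9 (exact 95% interval 10.9 to 163, counting error only). On the log2 scale the difference was 4.26 (SE 0.55, limma adjusted p = 0.00036). The next, comp19825_c0, scored 32, 80 and 53 in digits and 1, 2 and 5 in interdigital tissue. These groups did not overlap either, and the wing digits were the highest of the 6 for both components. Its ratio was 19.2 (8.47 to 53.6) and its log2 difference 3.99 (SE 0.51, limma adjusted p = 0.00035). They were also the 2 components whose smallest difference over the 3 regions was largest, at 3.86 and 3.17. Both reached the minimum mean score through the digit libraries, averaging 47.3 and 55.0 there against 1.33 and 2.67 in interdigital tissue. Both calls were lost with a minimum mean of 10 over the 14 libraries (limma adjusted p = 0.066 for each). The same held with no filter on low scores (0.39 for each) and without the region block (0.050 and 0.052).

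In the other direction, comp6879_c0 had the largest difference and also the largest smallest difference over the 3 regions, at -2.34. It scored 11, 5 and 14 in the digits of thumb, wing and foot, and 77, 64 and 75 between them. All 3 interdigital scores lay close together and far above the digits. The ratio of interdigital to digit reads was 7.35 (4.38 to 13.2), and the log2 difference was -2.83 (SE 0.38, limma adjusted p = 0.00049). The call was lost with a minimum mean of 10 over the 14 libraries (limma adjusted p = 0.080) and with no filter on low scores (0.40). It was also lost without the region block (0.052) and without the mean-variance trend (0.054). The second, comp8376_c0, scored 0, 17 and 3 in digits and 27, 107 and 7 in interdigital tissue. Its groups overlapped, since the foot tissue lay below the wing digits. This component also reached the minimum through interdigital tissue, with a mean of 47.0 against 6.67 in digits. The log2 difference was -2.80 (SE 0.64, limma adjusted p = 0.036), and the call was lost without any 1 of the pairs (limma adjusted p = 0.065 to 0.22).

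**Figure D1:**
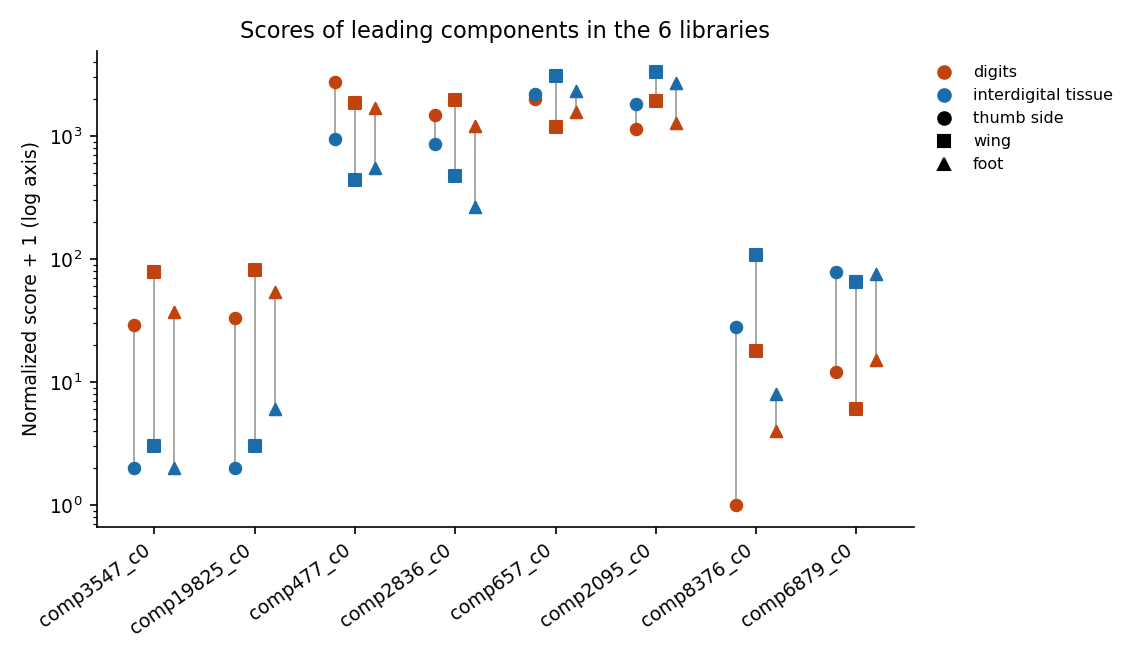
Normalized score + 1 (log axis) of 8 components in the 6 libraries; colour marks the tissue, symbol the region, and grey lines join the digit and interdigital library of a region. For comp3547_c0 the digits score 28 to 78 and the interdigital libraries 1 to 2, while comp8376_c0 overlaps between the tissues.

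Abundant components, scoring 1000 or more on average, showed smaller differences. Component comp477_c0 scored 2758, 1854 and 1693 in the digits of thumb, wing and foot, and 949, 434 and 551 in the tissue between. The digits stood above all interdigital libraries, with log2 differences of 1.54, 2.09 and 1.62. The mean difference was 1.75 (SE 0.14, limma adjusted p = 3.8e-06). This call was lost with no filter on low scores (limma adjusted p = 0.31), no mean-variance trend (0.086) or no region block (0.053). Component comp2836_c0 scored 1485, 1962 and 1204 against 861, 472 and 263. Its difference was narrower on the thumb side, at 0.79, than in the wing and the foot, at 2.05 and 2.19, and averaged 1.68 (SE 0.20, limma adjusted p = 0.00024). The call of comp2836_c0 was lost without the foot pair (1.42, limma adjusted p = 0.063, with 4.2e-15 to 0.74 over all alternatives). It was also lost under robust shrinkage (0.094), a minimum mean of 10 over the 14 libraries (0.13) or no region block (0.17). The same held with no mean-variance trend (0.21) or no filter on low scores (0.74). Of those lower in digits, comp2095_c0 scored 1141, 1908 and 1273 in digits and 1804, 3280 and 2665 between them. The groups overlapped, since the wing digits exceeded the thumb-side tissue, but within each region the interdigital score was higher. The log2 difference was -0.84 (SE 0.13, limma adjusted p = 0.0013). This call was lost with no filter on low scores (limma adjusted p = 0.57) or a minimum mean of 10 over the 14 libraries (0.10). It was also lost with no mean-variance trend (0.23) or no region block (0.40). The second of this rank, comp657_c0, scored 1989, 1169 and 1575 against 2209, 3046 and 2310 and missed the threshold, with a difference of -0.69 (SE 0.17, limma adjusted p = 0.054). It passed under both other scalings (limma adjusted p = 0.016 and 0.0041, with 0.00095 to 0.74 over all alternatives).

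Calls were spread over the whole range of levels. Between mean scores of 20 and 50, 37 of 3591 components were called higher in digits and 11 lower. At mean scores of 1000 or more, 36 of 2108 were called higher and 5 lower, shares of 1.71% and 0.237%. What changed with level was the size of the difference. The median log2 difference of the components called higher fell from 2.13 in the lowest band to 1.34 between 50 and 200, 1.09 between 200 and 1000, and 0.76 above. For those called lower it went from -1.90 to -1.18, -0.82 and -0.56. The median standard error over all components ran from 0.37 in the lowest band to 0.13 in the highest, so small differences could be called only at high scores.

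**Figure D2:**
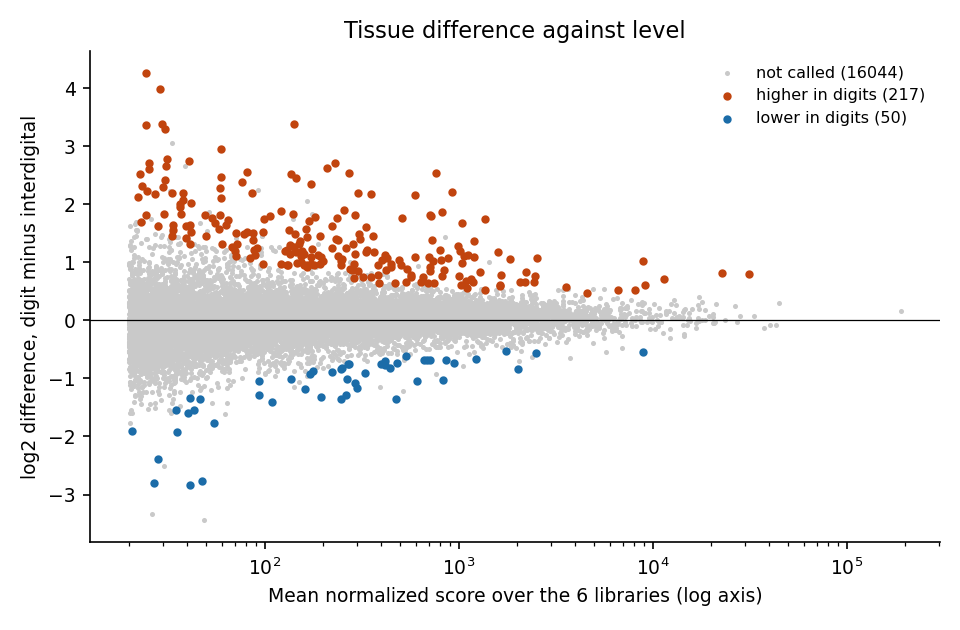
Mean normalized score over the 6 libraries (log axis) against the log2 difference, digit minus interdigital, for the 16311 kept components; red points are the 217 called higher in digits, blue points the 50 called lower, grey points the rest. Called differences narrow from the low to the high scores.

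Most called components differed the same way in each region, for which the test selects. The values for called components are thus a description. Of the 217 called higher in digits, 215 were higher in all 3 regions and the other 2 were not, and in 174 the lowest digit score exceeded the highest interdigital one. All 50 called lower were lower in all 3 regions, and 33 of them did not overlap. Over all kept components, 1245 (7.63%) lay without overlap higher in digits and 634 (3.89%) lower. One sign in all 3 regions was found for 2964 (18.2%) higher in digits and 1834 (11.2%) lower. These shares turned with the scaling, to 1912 higher and 2781 lower under upper-quartile scaling and 2042 and 2516 under median centring. The direction most kept components lean in was thus set by the scaling.

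The wing carried the widest gap for the components called higher in digits. Their median log2 difference was 0.94 on the thumb side, 1.49 in the wing and 1.21 in the foot. The wing had the largest of the 3 differences for 126 of the 217 (58.1%), against 36.5% of all kept components, and the thumb side the smallest for 122. Their median score was lowest in the tissue of the wing, at 84, with 136 on the thumb side and 117 in the foot. In the digits it was 264 in the wing, 301 in the thumb and 284 in the foot. The narrower thumb-side gap thus went with higher scores in the tissue there, and not with lower ones in digit I. The 50 called lower in digits were even over regions, with medians of -0.98, -1.02 and -0.89, and the wing had the largest difference for 19 of them (38.0%). These regional values come from the libraries used for the calls and are a description.

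Taken region by region, with 1 library against 1 and thus no test, the wing pair had the longest tail towards digits. Over 2-fold higher in digits were 268 components (1.64%) on the thumb side, 682 (4.18%) in the wing and 521 (3.19%) in the foot. Over 2-fold lower were 515 (3.16%), 387 (2.37%) and 426 (2.61%). On the thumb side more components were thus lower in the digit than higher. The balance of the foot turned with the scaling, to 430 higher and 546 lower under upper-quartile scaling and 410 and 592 under median centring. The wing kept more components higher, at 636 and 466 or 653 and 442, and the thumb side more lower, at 241 and 600 or 285 and 509. At over 4-fold, the wing had 158 higher and 23 lower (0.969% and 0.141%), the foot 89 and 30 (0.546% and 0.184%), and the thumb side 33 and 61 (0.202% and 0.374%). The digit I library was the shallowest of the 6. Its part in the thumb-side balance was not tested.

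**Figure D3:**
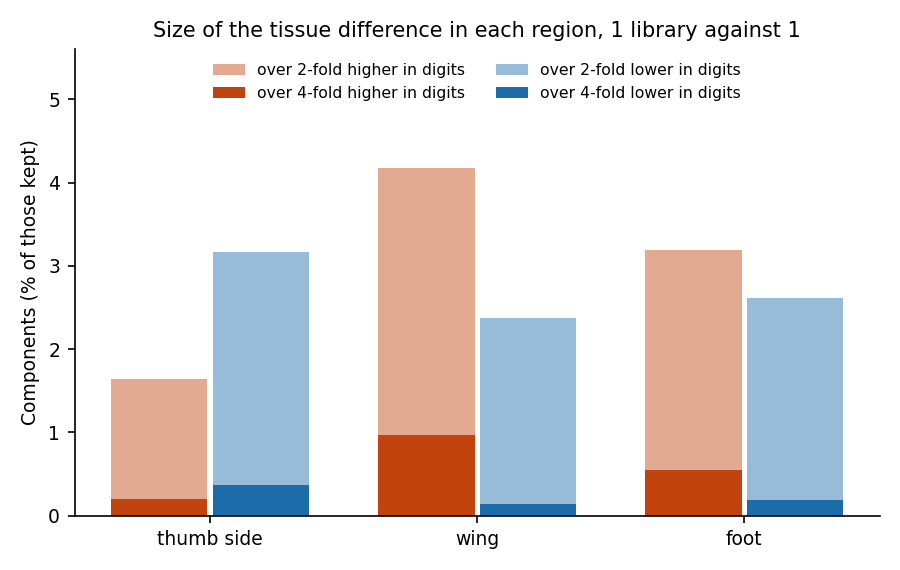
Share of the 16311 kept components that differed over 2-fold (pale) and over 4-fold (dark, drawn within) in each region, red for higher and blue for lower in digits. The wing reaches 4.18% over 2-fold higher in digits, while on the thumb side the lower share, at 3.16%, exceeds the higher one, at 1.64%.

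When each pair was ranked alone, over components averaging 50 or more in it, the leading ones were partly shared between regions. In the wing, comp2362_c0 scored 303 in digits and 5 between them, and it was also higher in the digits of the thumb side, at 203 against 55, and of the foot, at 242 against 39. Component comp13440_c0 scored 103 against 2 in the wing and 72 against 3 in the foot, but only 2 against 1 on the thumb side. It was thus nearly missing from digit I of the forelimb, while the other digit libraries, which each hold several digits together, had it. In the foot, comp16383_c0 scored 96 against 5 and comp13895_c0 scored 98 against 7. Both showed the same contrast in the wing, at 61 against 2 and 49 against 2. On the thumb side both lay the other way, at 30 against 40 and 13 against 27. On the thumb side the lead was taken by comp18349_c0, with 184 in digit I against 6, and comp22685_c0, with 98 against 9. Both were also higher in the digits of the wing, at 30 against 2 and 40 against 12, and of the foot, at 86 against 50 and 41 against 19.

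Several of the leading components in interdigital tissue stood high in 1 library. Component comp1255_c0 scored 261 in the tissue beside the thumb and 0 in digit I, while the other 4 libraries had 0 to 15. It thus reached the minimum mean score through 1 library. In the S14 buds it scored 0 to 2, and in the fetal metacarpals and metatarsals 13004 and 9449, far above any S15-17 library. Component comp1181_c0 scored 251 in the tissue beside the thumb and 19 in digit I. The other 4 libraries of S15-17 had 335 to 1112, so that a low digit I made its gap. In the wing, comp16853_c0 had 178 between the digits and 17 in them, and it was also higher between the digits of the thumb side, at 30 against 2, and of the foot, at 45 against 14. Component comp8376_c0, described above, was the second of the wing. In the foot, comp17312_c0 scored 181 in the interdigital library and 0 in the other 5. Of the earlier and later libraries, the posterior part of the S14 hindlimb bud had it at 43, and all others had it at 0. Component comp11576_c0 scored 203 in that library against 14 to 39 in the others. With 1 library of the foot tissue, a feature of that library and one of the tissue cannot be told apart.

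Across components, the 3 regions were weakly related. Their log2 differences share no library, and the components are not independent of each other, so the values describe these pairs only. Pearson's r over the 16311 components was 0.265 between thumb side and wing, 0.268 between wing and foot, and 0.129 between thumb side and foot. The sign was shared by 61.5%, 46.5% and 49.1% of components. The wing and the foot thus had the highest r and the lowest share of equal signs.

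**Figure D4:**
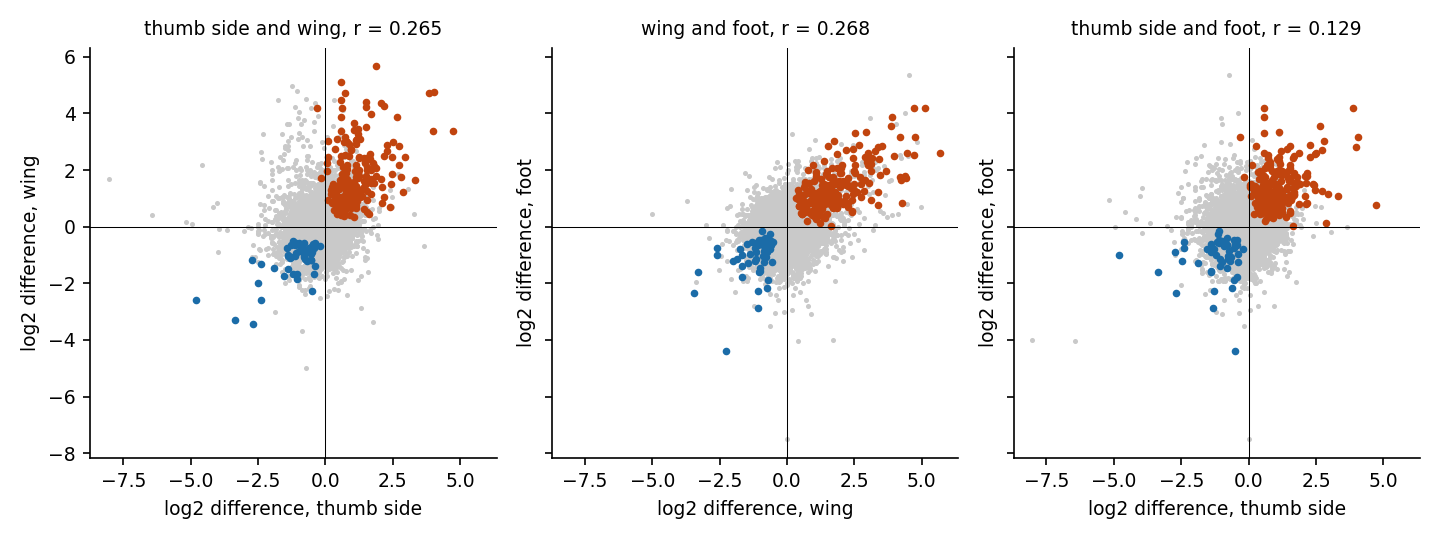
Log2 difference, digit minus interdigital, of each kept component in 1 region against another; red points were called higher in digits, blue points lower. Nearly all called components lie in the quadrants of equal sign, for which the test selects, with 2 exceptions among those higher in digits, and the grey cloud is nearly round, with r from 0.129 to 0.268.

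The spread of the 6 log2 scores was divided into tissue, with 1 degree of freedom, and region and a remainder, with 2 each, as mean squares. A mean square with 1 degree of freedom has a lower median than one with 2 where nothing differs, so the medians and the shares below are not on equal terms for tissue, while the means are. The medians over all kept components were 0.0385 for tissue, 0.0652 for region and 0.0449 for the remainder. Region was the largest of the 3 for 42.1% of components, tissue for 31.9% and the remainder for 26.0%. The means were 0.209 for tissue, 0.192 for region and 0.113 for the remainder. For the 217 called higher in digits, the median mean square was 2.30 for tissue and 0.295 for region, as the call requires a tissue difference wide against the remainder. Among single libraries, the foot tissue was the highest of the 6 for 20.3% of components and the lowest for 22.2%, and the wing tissue was the lowest for 22.2%. The digit libraries held the lowest value for 8.66% to 14.3%.

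Whether the tissue difference itself was another in the wing was tested against the mean of thumb side and foot. limma called 58 components (0.356%), 51 with a higher digit minus interdigital difference in the wing (0.313%) and 7 with a lower one (0.0429%), and 818 (5.02%) had an unadjusted p under 0.05. In 43 of the 51, the wing tissue had the lowest score of all 6 libraries, and in 14 the wing digits had the highest. Over all kept components these hold for 22.2% and 16.9%, and the test itself favours components with low wing tissue or high wing digits. Their median score was 21 in the wing tissue, against 166 on the thumb side and 78 in the foot, while in digits it was 240 in the wing, 100 in the thumb and 209 in the foot. These components were thus marked by low scores between the wing digits, in 1 library. Of the 51, 14 were also called higher in digits over all regions, in a test on the same libraries that called 1.33% of kept components in that direction.

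The 2 largest of these differences were in components of uneven pattern. Component comp6014_c0 scored 30 in the wing digits and 0 between them, while the thumb side had 19 and 46 and the foot 51 and 31. Its difference in the wing exceeded the others by 5.22 on the log2 scale (SE 1.03, limma adjusted p = 0.00032). For comp1255_c0, with 12 against 3 in the wing, 0 against 261 on the thumb side and 0 against 15 in the foot, it was 7.72 (SE 1.57, limma adjusted p = 0.00068). The other regions of this component differ widely from each other as well. Of the lower ones, comp12744_c0 scored 0 in the wing digits and 17 to 31 in the other libraries (log2 -4.85, SE 1.16, limma adjusted p = 0.013). Component comp23054_c0 scored 3 in the wing digits and 14 to 51 elsewhere (log2 -3.72, SE 0.96, limma adjusted p = 0.036).

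This test has 1 residual degree of freedom per component, and limma then took the spread from the trend over all components alone. The count was 0 without that trend and 0 with a minimum mean of 10 over the 14 libraries, and voom called 24, all of them among the 58.

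Whether the tissue difference was another in the foot than in the forelimb gave no call. limma called 0 of 16311 components, voom also 0, and 1902 (11.7%) had an unadjusted p under 0.05, against 818 (5.02%) in the wing test. Here too there is 1 residual degree of freedom per component. The borrowed spread had a weight of 6.72 degrees of freedom, while the wing test used the trend alone. The counts of 0 and 58 are thus not on equal terms. Component comp1651_c0 came nearest. It scored 273 in digit I and 231 in the wing digits against 610 and 681 in the tissue beside them, and 187 in the digits of the foot against 50 between them. The tissue was higher in both forelimb regions and lower in the foot. The wing test above also called comp1651_c0, with a lower difference in the wing (log2 -1.92, SE 0.41, limma adjusted p = 0.0014). Yet its wing and thumb side were alike, at -1.56 and -1.16, against 1.88 in the foot. A call in the wing test thus need not mean that the wing stands apart from both other regions. The foot minus forelimb difference was 3.24 (SE 0.30, limma adjusted p = 0.11), and it passed the threshold after median centring (limma adjusted p = 0.00046), at equal depth (0.027) or under a pseudocount of 5 (0.030), and missed it under the other 9 alternatives run (0.063 to 0.58). The next by p was comp332_c0, with 778 and 852 in forelimb digits against 1209 and 1156 between them, and 1290 against 764 in the foot (difference 1.29, limma adjusted p = 0.41). In the other direction, comp3081_c0 scored 797 and 1611 against 727 and 1168 in the forelimb and 670 against 1334 in the foot (difference -1.29, limma adjusted p = 0.41). Component comp4221_c0 was higher between the digits in every region, by most in the foot, at 1678 against 449, with 597 against 414 and 339 against 205 in the forelimb (difference -1.27, limma adjusted p = 0.41).

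Hardly any kept component was missing from a whole tissue. One, comp17312_c0, was at 0 in all 3 digit libraries, and its 133 interdigital reads all came from the foot. It thus passed the minimum mean score through 1 library. None was at 0 in all 3 interdigital libraries. At least 1 library at 0 was found for 12 components in digits and 7 in interdigital tissue.

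The other stages show where the called components stood before and after. At S14, limb buds were cut into anterior, middle and posterior parts of each limb, giving 6 libraries, and at the fetal stage the metacarpals of wing digits II-V and the metatarsals of the foot gave 2 more. None of these entered the calls. For the 217 components called higher in digits, the median score was 123 to 192 in the buds, and 313 and 357 in metacarpals and metatarsals. In 68 of them (31.3%) both metapodial libraries exceeded all 6 libraries of S15-17, and in 20 (9.22%) both lay below, against 20.9% and 39.2% of all kept components. For the 50 called lower, the metapodial medians were 111 and 90, and the shares were 14.0% above and 28.0% below. Compared with the buds, the median log2 difference of metapodials was 1.17 for the first set, 0.05 for the second and -0.34 over all kept components. Over all components the tissue difference and the metapodial minus bud difference were almost unrelated, with r = 0.0697.

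**Figure D5:**
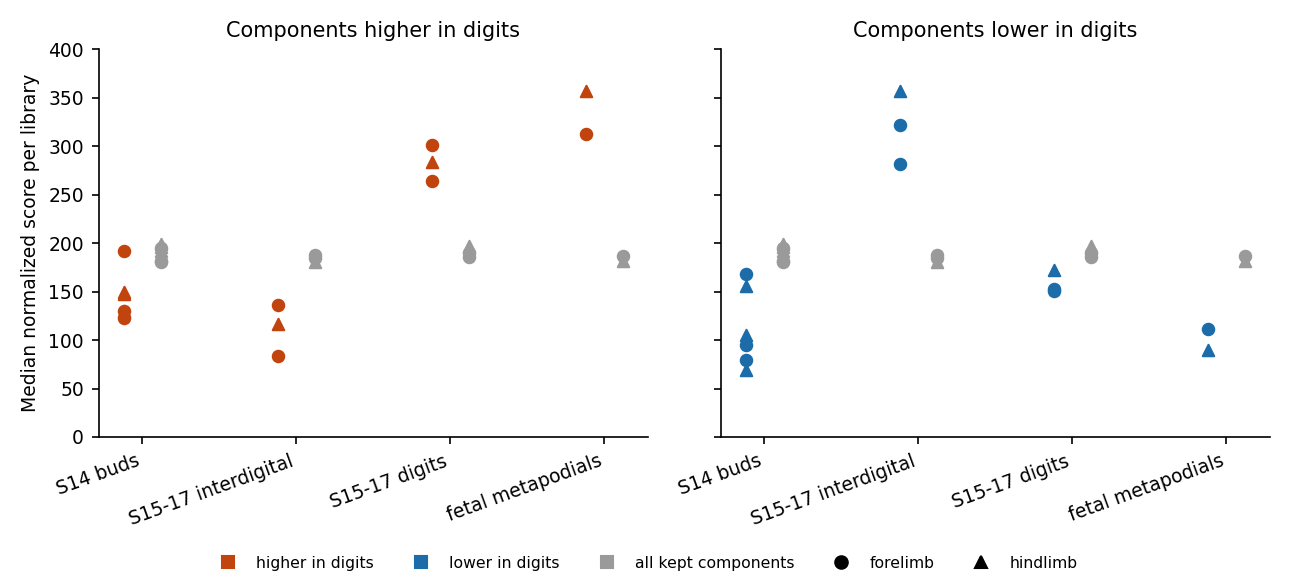
Median normalized score per library of the 217 components called higher in digits (left, red) and the 50 called lower (right, blue), with all kept components in grey; circles are forelimb and triangles hindlimb libraries. The gap between digits and interdigital tissue is how the sets were chosen; the metapodial medians of 313 and 357 on the left and 90 and 111 on the right come from libraries outside the calls.

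Single components followed different courses. Component comp3547_c0 was at 0 in all 6 buds and scored 1723 in metacarpals and 3094 in metatarsals, far above its digit scores. Component comp2362_c0 scored 19 to 104 in buds and 3866 and 3858 in metapodials. Component comp477_c0 scored 829 to 2267 in buds and 6128 and 32108 in metapodials. In metapodials comp19825_c0 scored 73, within the range of its digit scores, and 26, below it but above its 4 to 16 in buds, and comp2836_c0 returned to 429 and 433, within its bud range of 196 to 755. Of those lower in digits, comp6879_c0 scored 22 to 132 in buds and 8 and 0 in metapodials, so that the interdigital scores of 64 to 77 lay within the bud range and those of digits and metapodials below it. Component comp16853_c0 was at 0 to 7 in buds and at 4 and 2 in metapodials, so among these 14 libraries its highest scores were those of the 3 interdigital ones. Component comp2095_c0 was higher in all 6 S15-17 libraries, from 1141 to 3280, than in buds, at 242 to 578, or metapodials, at 504 and 373.

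Within the buds, the middle part was set against the mean of the anterior and posterior parts. Of the components called higher in digits, 84.3% were higher in the middle of the forelimb bud, with a median log2 difference of 0.64, against 51.4% and 0.01 over all kept components. In the hindlimb bud the shares were 50.2% and 55.0%, so no such lean was seen there. Of those called lower in digits, 28.0% were higher in the middle of the forelimb bud and 32.0% in the middle of the hindlimb bud. Over all kept components, r between the tissue difference and the middle minus outer difference was 0.172 in the forelimb and 0.00517 in the hindlimb. Each middle part is 1 library, so these values describe those libraries.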

How the data were processed

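TruSeq libraries were built from DNase-treated total RNA, per the labels' protocols. CASAVA 1.8, edgeR and RSEM appear in the submitters' processing notes, with no role given; how transcripts were assembled is not stated there. The authors deposited a score per component and library, a normalized count rounded to a whole number. In each library the low scores fall on rounded multiples of 1 step, taken as the score of 1 read, and all scores divided by that step gave the recovered reads.

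limma 3.58.1 (R 4.3.3) was run on log2(score + 1), with a mean-variance trend and region as block, over components with a mean of at least 20 in the 6 libraries. Fold changes on this scale understate those of low components. Digits were paired with neighbouring tissue by the anatomy that the labels give. In the tissue and foot tests, p-values rest on how far the tissue difference varied between regions and on spread borrowed from other components. In the foot test these regions were the thumb side and the wing. Such variation may include differences between embryos or libraries. In the wing test, p-values rest on the trend over all components alone. Counts, intervals and plots used pandas 2.3.3 and numpy 2.4.6 under Python 3.11.15, with matplotlib 3.10.9 and scipy 1.17.1. Intervals are exact 95% binomial intervals on pooled reads and cover counting error only.

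Named are at most 2 components per direction and comparison, those with the largest difference among called ones with 1 sign in all regions, or with the smallest p where none was called; for 1 region or abundant components, those with the largest difference. The comparison and rules were chosen with earlier results of these data known. Gene lists could not be used, as identifiers carry no gene names. Alternatives were other pseudocounts, filters, scalings and variance settings, voom, no block and leaving out each region; chosen after seeing the data were a minimum of 10 over the 6 libraries and thinning to equal depth.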

Additional observations from a re-analysis of the deposited data

Results flagged for a closer look

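Of the 58 components called in the limma test of the wing difference against that of thumb side and foot, the 4 named by rule were comp1255_c0 (log2 7.72), comp6014_c0 (5.22), comp12744_c0 (-4.85) and comp23054_c0 (-3.72). The wing is 1 pair of libraries, and the spread in this test came from the trend over all components, not from replicates. In all 4, 1 wing library was at 0 or near it. It was 0 and 3 between the wing digits for comp6014_c0 and comp1255_c0, and 0 and 3 in the wing digits for comp12744_c0 and comp23054_c0. In comp1255_c0 the digits of the thumb side and of the foot were also at 0, against 261 and 15 in the tissue beside them. None of the 4 passed without the mean-variance trend (limma adjusted p = 0.52 to 0.96) or with a minimum mean of 10 over the 14 libraries (0.95). With voom on recovered reads, comp12744_c0 and comp23054_c0 missed the threshold (limma adjusted p = 0.081 and 0.42). The same 2 missed it with a pseudocount of 5 (0.25 and 0.092), and comp23054_c0 at equal depth (0.29). No region could be left out of this test, since no residual degree of freedom would stay.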

How the results depend on the processing

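The number of components called between digits and interdigital tissue, 267, stayed within 1.5 times under both other pseudocounts, a minimum mean of 50, upper-quartile scaling, robust shrinkage, voom, a minimum of 10 over the 6 libraries and equal depth. It was 404 with median-centred libraries, 8 with no trend, 4 with a minimum of 10 over the 14 libraries, and 0 with no filter or no block; without 1 pair it ran from 94 to 350. The foot minus forelimb count of 0 became 1 with a pseudocount of 5, median-centred libraries or equal depth. The wing count of 58 became 0 with no filter, a minimum of 10 over the 14 libraries or no trend, and 24 with voom. Of the named components, each followed in the test that named it and those of a region, level or zero rule in the comparison of tissues, the sign was lost for 2 that did not pass as reported: comp1181_c0 (0.01 without the thumb-side pair, -1.76 and -1.88 without the wing or foot pair) and comp17312_c0 (0.00 without the foot pair, -3.75 without either other pair).

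One sign in all regions was found for 4712 higher and 6894 lower with no filter, for 1214 lower with a minimum mean of 50, and for 1912 higher and 2781 lower with upper-quartile scaling. With 1 region left out, 2 instead of 3 signs must match, and the counts were 4600 to 5563 higher and 2974 to 4456 lower. Counts over 2-fold, higher and lower, were 7116 and 9200 on the thumb side, 9461 and 11671 in the wing, and 7199 and 8955 in the foot with no filter. With a minimum of 10 over the 14 libraries they were 590 and 1299, 1331 and 922, and 1017 and 1067. With a minimum mean of 50 they were 122 and 153, 339 and 148, and 273 and 95, so that the thumb-side excess of lower components narrowed among more abundant ones. The filters change which components are counted; other causes of these shifts were not tested. No paired analysis by replicate number was possible because the labels carry none; the region block is the matching used. Depth limits the low components: 1 read is a score of up to 2.14.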

Other observations

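Below the minimum score, interdigital libraries held components that digits lacked more often than the reverse. Of all 64618 components, 1016 were above 0 in all 3 interdigital libraries and at 0 in all 3 digit libraries, and 152 were the other way round. With reads thinned to equal depth, these were 749 and 227. The 1016 and the 152 all lay below the minimum mean score of 20, so none of these entered the tests.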
